A study of Rattus norvegicus with 24 samples.

Results

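Collagens, the lysyl oxidases that cross-link them, and the matrix proteases and protease inhibitors that govern their turnover were followed in rat thoracic propriospinal (TPS) neurons after the spinal cord was cut. The genes were taken by a rule on their names, set with earlier results of these data known: collagen chains (Col), lysyl oxidases (Lox), matrix metalloproteinases (Mmp), tissue inhibitors of metalloproteinases (Timp) and ADAMTS proteases (Adamts). Of the 14324 genes that a probe of the array named alone, 65 met this rule, through 68 probes. A filter on dim probes kept 61 of them: 25 collagens (10 fibrillar, 5 of basement membranes and networks, 10 of other types), 4 lysyl oxidases, 17 matrix metalloproteinases, 4 TIMPs and 11 ADAMTS proteases. Loxl2, Mmp1, Mmp10 and Mmp13 were under the filter, with log2 group means from 4.54 to 4.98 in all 7 groups. The weakest genes kept were Adamts19 (mean log2 5.18 over the 24 arrays) and Adamts14 (5.19), and the brightest genes dropped were Loxl2 (4.88) and Mmp13 (4.74). No probe named Col4a2 or Col18a1 alone.

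Collagen chains assemble into triple helices inside the cell, are secreted, and are cross-linked outside it by lysyl oxidases into stiff fibers or sheets. Metalloproteinases and ADAMTS proteases cut collagens, proteoglycans and cell-surface proteins, and TIMPs block many of these enzymes. In the cut spinal cord, collagen-rich scar is known to be laid down chiefly by perivascular and meningeal fibroblasts at the lesion, and metalloproteinases and Timp1 are known to be made there by invading leukocytes and reactive glia. The arrays measured labeled neurons above the cut and not the lesion itself, together with whatever lay against them in the dissected tissue. The study describes these neurons as close to the lesion and to the inflammatory and immune reactions there. Its authors could not fully exclude contamination by microglia or macrophages but held the sample to be relatively pure. They cited no rise of Cd163 or Aif1 and a lack of Gfap and myelin gene expression. Sums of markers of such cells on these arrays are given below.

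The animals were female Long Evans rats aged 77 +/- 10 days. Every rat, controls included, had a laminectomy over the lumbosacral enlargement and injections of the fluorescent retrograde tracer Fluorogold there, and the TPS neurons labeled by it were later cut out of mid-thoracic gray matter by laser. Transected rats had the cord cut at a lower thoracic level 1 week after the tracer and were examined 3 days (n = 4), 1 week (n = 4), 2 weeks (n = 2) or 1 month (n = 2) later. Control rats, which were labeled but not transected, are named in the sample labels as 4-day, 2-week and 1-month controls (n = 4 each), and the methods count their survival as 10 days, 3 weeks and 5 weeks from the tracer. For the transected rats, and not for controls, the methods also give a further anesthesia and a thoracic laminectomy. Their care after the cut held a further course of buprenorphine, bladder expression until the reflex returned and cefazolin during the first week. What these did cannot be told apart from the cut. The 4-day controls served for both 3 days and 1 week, so these 2 comparisons share their control arrays. By the methods the 1-week rats were 2 weeks from the tracer and these controls 10 days, so time from the tracer was not matched at 1 week. Each array carried amplified RNA of cells pooled from 1 animal, so fewer cells of a kind and less RNA per cell cannot be told apart. Values are log2 of the deposited intensity, and the median over all probes ran from 6.20 to 6.35 between arrays. All tests came from 1 limma fit over 23240 probes, and a gene was called where its Benjamini-Hochberg adjusted p was under 0.05.

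At 3 days, 3 of the 61 genes rose and none fell: the collagen cross-linking enzyme Lox, the protease inhibitor Timp1 and the protease Mmp3 (stromelysin-1). These are 4.92% of the genes, against 2.89% of all probes called at this time (2% higher and 0.886% lower). Lox rose 5.30-fold (95% interval 3.41 to 8.26), Timp1 4.25-fold (2.55 to 7.08) and Mmp3 1.59-fold (1.28 to 1.98). Fitted on the 8 arrays of these groups alone, none of the 3 genes was called (adjusted p = 0.0718 for Lox), and with all 12 controls pooled 6 genes were. None of the 25 collagens was called in either direction. At an unadjusted p under 0.05 there were 8 of the 61 genes, or 13.1%, against 14.2% of all probes, and the median difference of the 61 genes was -0.00, against -0.01 for all probes.

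**Figure D1:**
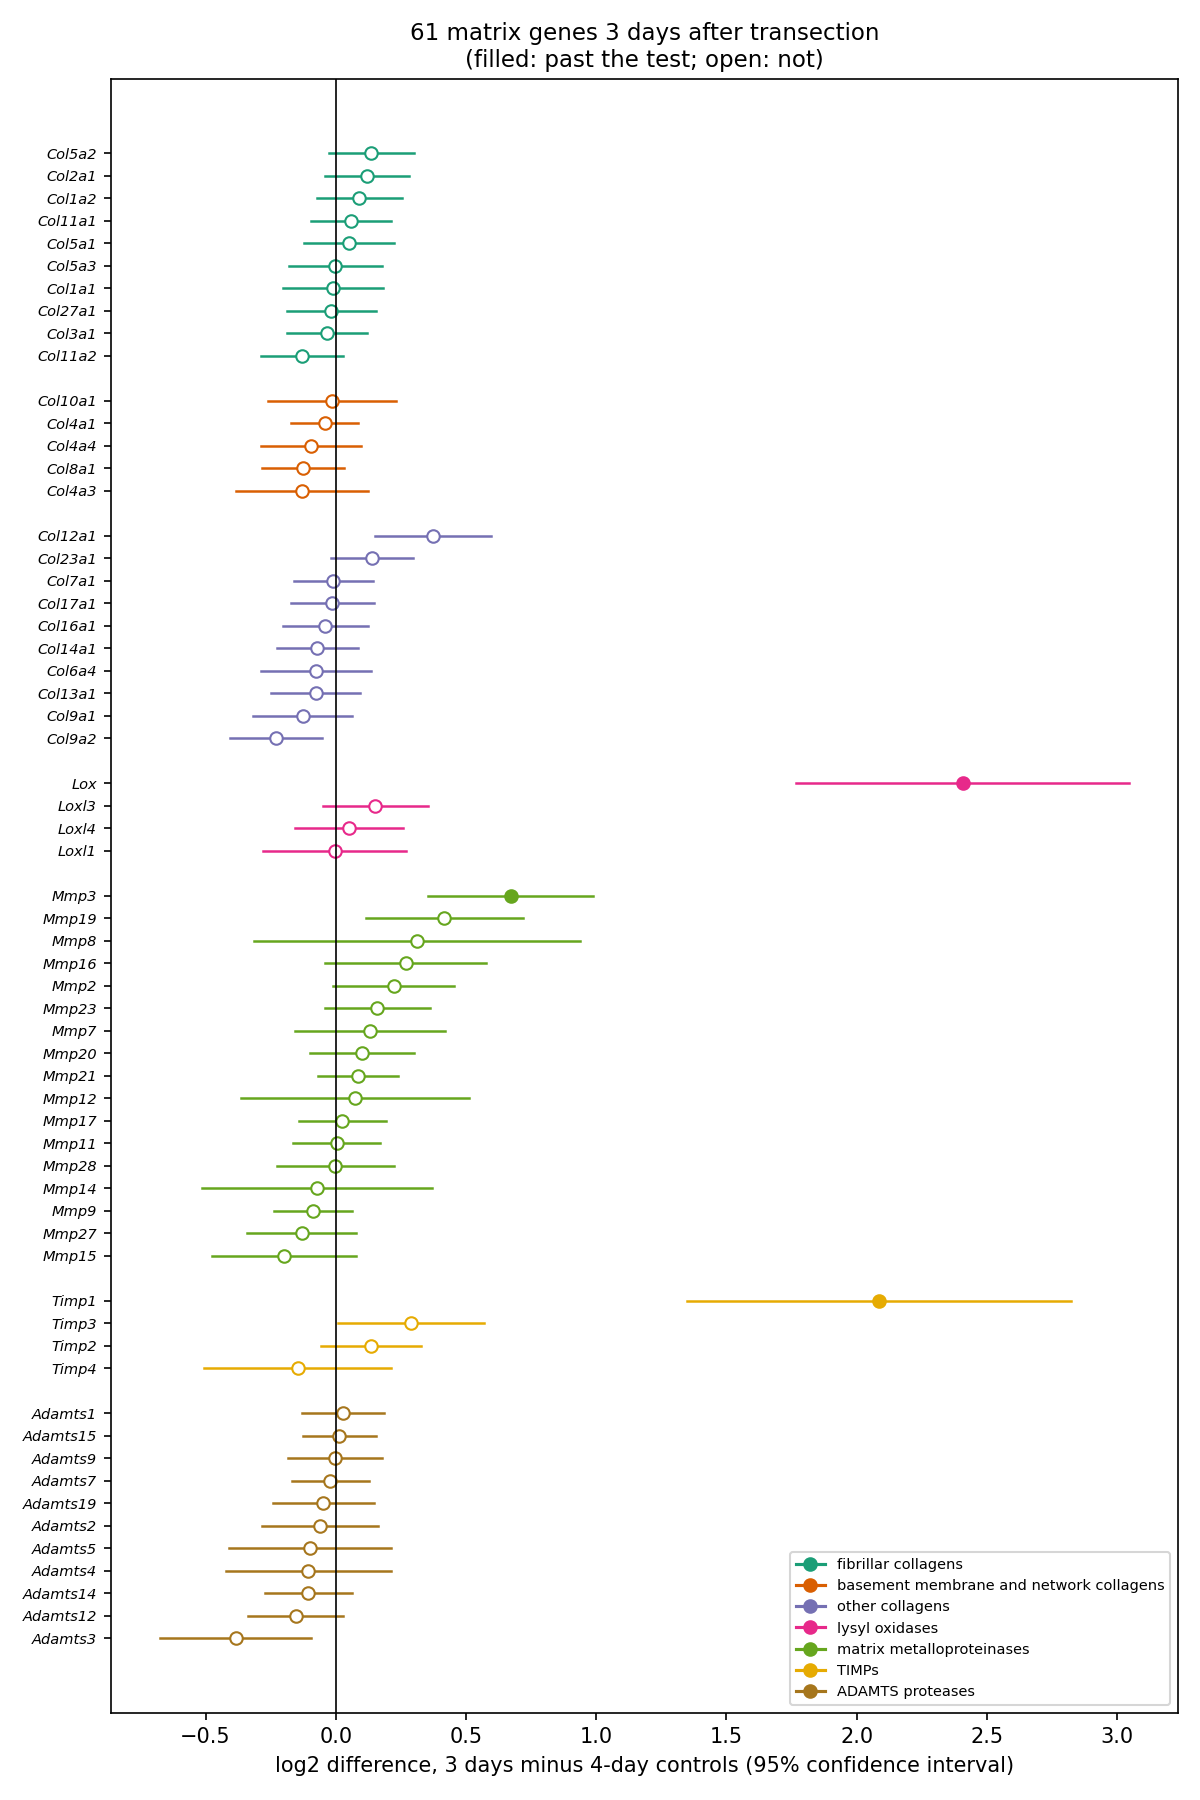
Log2 difference between 3 days after transection and the 4-day controls (x axis) for each of the 61 genes (y axis, sorted within its class), with the 95% confidence interval of the limma fit as a line. Filled points passed the test: Lox at 2.41, Timp1 at 2.09 and Mmp3 at 0.67. The other 58 genes (open points) lie between -0.38 (Adamts3) and 0.42 (Mmp19).

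Lox encodes the founding member of the lysyl oxidases, copper enzymes that oxidize lysines of collagen and elastin so that the chains can be cross-linked. Its log2 intensity was 6.33, 6.05, 5.62 and 5.94 on the 4-day control arrays and 8.54, 9.38, 7.15 and 8.50 on the 3-day arrays. All 4 transected arrays lay above all 4 controls, and replicate 3 was the lowest of the transected arrays by more than 1 log2 unit. The difference was 2.41 (SE 0.31, adjusted p = 0.000117). The study also listed Lox among its most raised genes, a choice made on these same arrays, so that listing is not independent evidence.

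By 1 week the Lox values were 6.88, 5.95, 5.92 and 5.78, within or near the range of the 4-day controls except for replicate 1. The difference from those controls was 0.15 (SE 0.31, adjusted p = 0.999). At 2 weeks Lox read 5.56 and 5.72 against 5.65 to 5.78 in the matched controls, and at 1 month 5.41 and 5.50 against 5.30 to 5.86. The late groups overlapped their controls. Set directly against 1 week, without the shared controls, Lox was higher at 3 days by 2.26 (SE 0.31, adjusted p = 0.000245). Its 3-day effect also exceeded its 2-week effect by 2.51 (SE 0.48, adjusted p = 0.0473) and its 1-month effect by 2.65 (SE 0.48, adjusted p = 0.0330), in comparisons where 0.0904% of all probes were called. Each of these last calls was lost (adjusted p up to 0.422 and 0.231) when any of 12 of the 14 arrays compared was left out, that is all but 3-day replicate 3 and 4-day control 1.

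The other lysyl oxidases gave no such difference at 3 days. Loxl1, an enzyme of elastic fiber assembly, differed by -0.00 (SE 0.13), Loxl3 by 0.15 (SE 0.10, adjusted p = 0.546) and Loxl4 by 0.05 (SE 0.10). Loxl1 was among the 3 genes of the 61 with the smallest p at 1 month, where it read 6.06 and 5.59 against 5.32, 5.57, 5.44 and 5.40 in the controls. The lower transected array lay only just above the highest control, and the difference of 0.40 (SE 0.16) was not called (adjusted p = 1).

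Timp1 encodes a small secreted inhibitor that binds the active site of most metalloproteinases. On the 4-day control arrays its log2 intensity was 8.64, 8.83, 6.86 and 7.62, and 3 days after transection it was 10.62, 10.18, 9.46 and 10.03. Every transected array was above every control, although the controls themselves spread over almost 2 log2 units. The difference was 2.09 (SE 0.35, adjusted p = 0.00169). Without 4-day controls 3 and 4, the pair with the lowest array weights (0.328 and 0.477), it was 1.34 and was not called (adjusted p = 0.135).

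At 1 week Timp1 read 8.69, 7.62, 7.23 and 8.31, inside the range of the 4-day controls, with a difference of -0.02 (SE 0.35). At 2 weeks it read 8.35 and 7.50 against 6.55, 6.71, 6.99 and 6.94 in the 2-week controls. At 1 month it read 7.51 and 7.48 against 6.46, 6.54, 6.48 and 6.76. Both late groups lay wholly above their own controls, but neither difference was called (2 weeks 1.13, SE 0.43, adjusted p = 0.802, and 1 month 0.93, SE 0.43, adjusted p = 1). The 4-day controls were the brightest control group for Timp1: the 2-week controls were below them with a difference of -1.19 (SE 0.35, adjusted p = 0.158), and the 1-month controls with -1.43 (SE 0.35, adjusted p = 0.123), so the difference at 1 week was taken from a higher control level than the later ones. Directly against 1 week, the 3-day arrays were higher by 2.11 (SE 0.35, adjusted p = 0.00188). Averaged over the 4 times, Timp1 was higher after transection by 1.03 (SE 0.22, adjusted p = 0.0356), 1 of 2 genes called in that comparison, where 0.404% of all probes were called. That call was lost on leaving out any of 14 of the 24 arrays (difference 0.84 to 1.17, adjusted p up to 0.170): 3-day replicates 1, 2 and 4, 1-week replicate 5, 2-week replicate 3, both 1-month replicates, 4-day controls 3 and 4, 2-week controls 1 and 2, and 1-month controls 1, 2 and 3.

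Timp2, Timp3 and Timp4 were not called at 3 days. Timp2, which also takes part in activating proMmp2 at the cell surface, read 10.32 to 10.84 in the 4-day controls and 10.69 to 10.85 at 3 days (difference 0.13, SE 0.09). Timp3, which binds to matrix and also inhibits ADAMTS enzymes, read 8.60, 8.64, 8.50 and 8.92 against 9.16, 9.01, 8.70 and 8.94 (0.29, SE 0.14, adjusted p = 0.333), with overlap. Timp4 differed by -0.15 (SE 0.17). On the RefSeq annotation (GRCr8) Timp1, Timp3 and Timp4 overlap the synapsin genes Syn1, Syn3 and Syn2, which encode synaptic vesicle proteins, and the deposited values do not say which strand or exons a probe reads. Syn1 itself differed by -0.18 at 3 days (SE 0.10, adjusted p = 0.468).

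**Figure D2:**
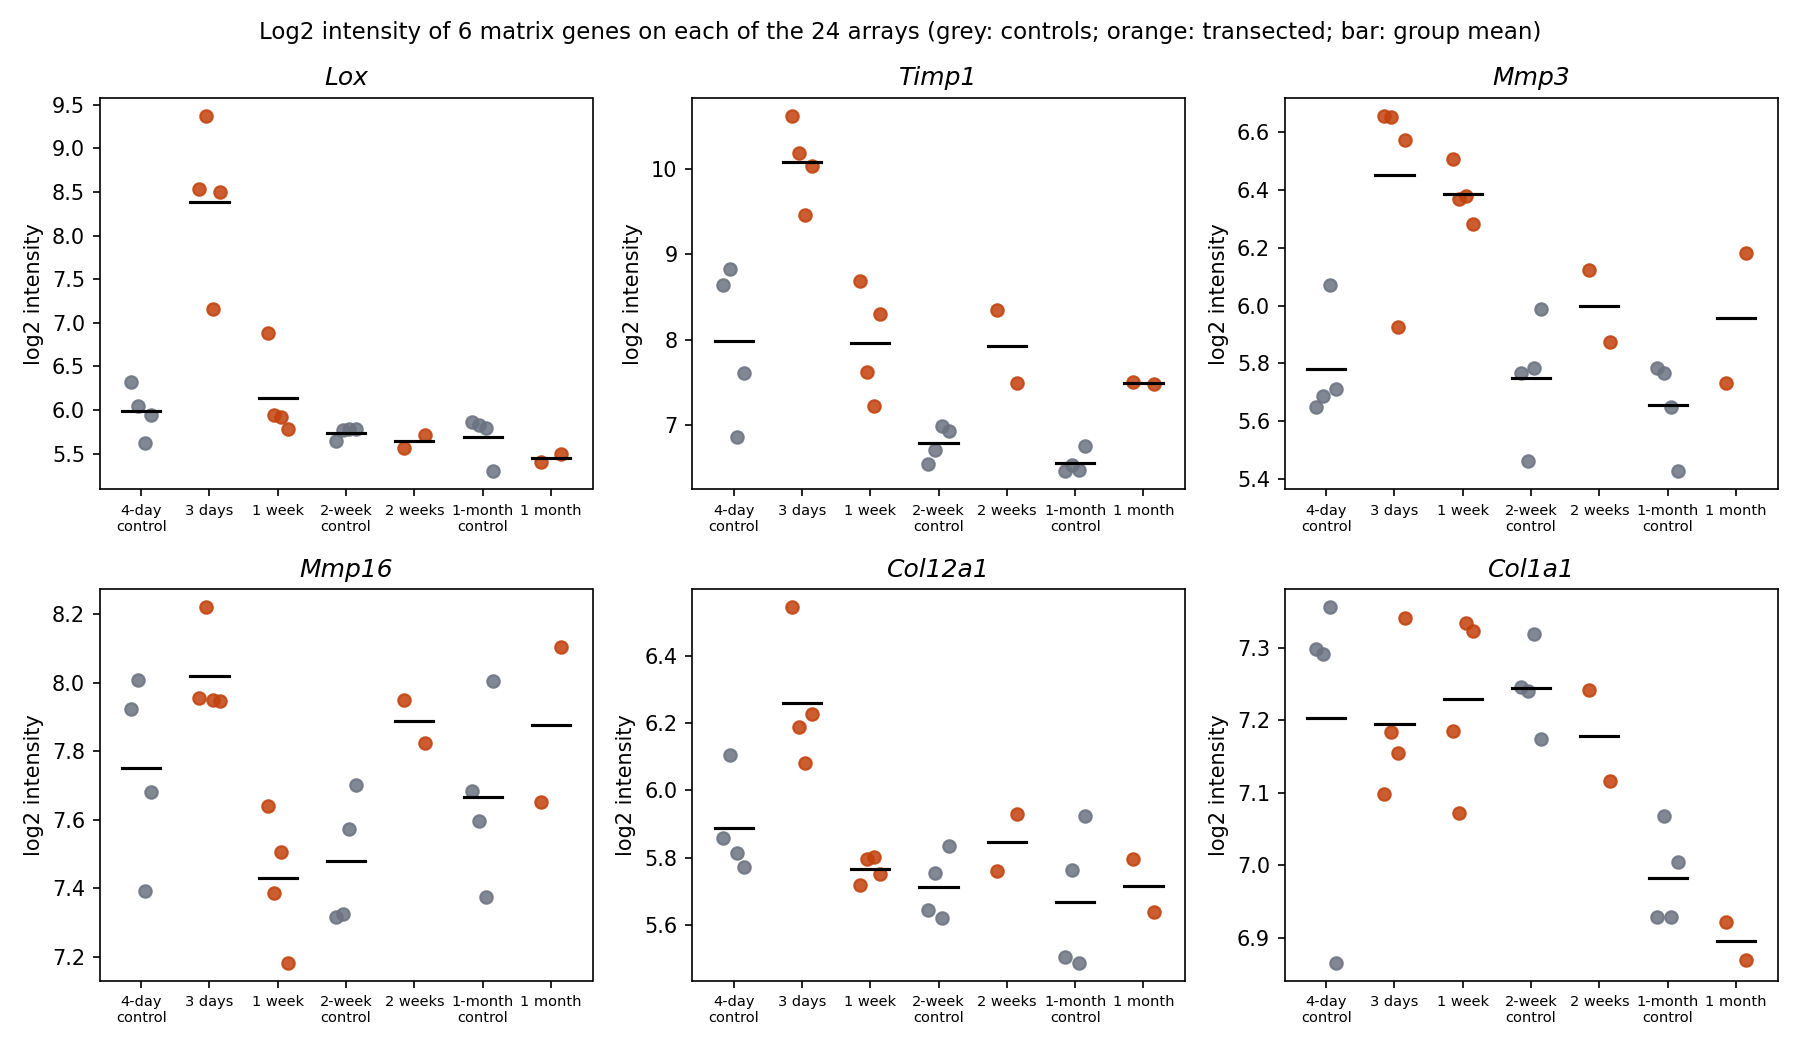
Log2 intensity (y axis) of Lox, Timp1, Mmp3, Mmp16, Col12a1 and Col1a1 on each of the 24 arrays, by group (x axis), with controls in grey, transected animals in orange and the group mean as a bar. Lox is above 7 on the 3-day arrays alone, Timp1 is highest at 3 days and sits above its own controls at 2 weeks and 1 month, Mmp3 lies above all 4-day controls on 3 of 4 arrays at 3 days and on 4 of 4 at 1 week, and Col1a1 at 3 days lies within the 4-day controls.

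Mmp3 degrades proteoglycans, laminin and fibronectin and activates other pro-metalloproteinases. Its log2 intensity was 5.65, 5.69, 6.07 and 5.71 in the 4-day controls and 6.65, 6.65, 5.93 and 6.57 at 3 days. Replicate 3 of the transected group fell below control 3, so the groups overlapped, and the difference was 0.67 (SE 0.15, adjusted p = 0.0169). That call was lost when transected replicate 1, 2 or 4 or 4-day control 1 was left out, with an adjusted p of up to 0.0652. Lox and Timp1 were the 2 of 61 genes whose groups did not overlap at 3 days, or 3.28%, against 5.51% of all probes.

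At 1 week no gene of the 61, and no probe at all (0%), was called. Without adjustment 3 of the 61 genes had a p under 0.05, against 1031 of all probes, or 4.44%. Mmp3 had the smallest adjusted p of the 61 genes: it read 6.51, 6.37, 6.38 and 6.28, all above the 4-day controls. Its difference was 0.60 (SE 0.15, 1.52-fold, adjusted p = 0.950), and it was the 1 gene of the 61 whose groups did not overlap, against 1.76% of all probes. At 2 weeks Mmp3 read 6.12 and 5.87 against 5.46 to 5.99, and at 1 month 5.73 and 6.18 against 5.43 to 5.78, both with overlap. On the average over the 4 times Mmp3 was higher by 0.46 (SE 0.09, adjusted p = 0.0270), the other of the 2 genes called there. Leaving out 1-month replicate 2, 2-week replicate 3, 4-day control 1 or 4-day control 4 ended this call (adjusted p up to 0.135). The difference of Mmp3 between 3 days and 1 week was not called.

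Mmp3 lies on chromosome 8 in a neighborhood of 9 metalloproteinase genes with at most 2 other protein-coding genes between neighbors, in the order Mmp13, Mmp12, Mmp3, Mmp1, Mmp10, Mmp8, Mmp27, Mmp20 and Mmp7 (RefSeq, GRCr8). Of the 6 that were tested only Mmp3 was called at 3 days. The log2 differences of the others were 0.07 for Mmp12 (macrophage elastase), 0.31 for Mmp8 (neutrophil collagenase), -0.13 for Mmp27, 0.10 for Mmp20 (enamelysin) and 0.13 for Mmp7 (matrilysin), with SEs from 0.10 to 0.30. Mmp8 had the widest interval of the 58 uncalled genes, reaching 0.94.

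Promoters of 46 of the 61 genes were found in the RefSeq table (GRCr8, 250 bases before to 50 after the start). The AP-1 motif TGANTCA, searched on both strands, was in 4 of these 46, against 7.33% of all 33469 promoters of the same length. All 4 belong to the chromosome 8 neighborhood, and none to the 20 collagens with a promoter. The same 4 promoters also hold TATAAA, searched on the given strand, which was in 10 of the 46 and in 8.80% of all promoters. They are shown, 100 bases up to the start, because Mmp3 was called while its neighbors with a match to the same motifs were not. Those neighbors were dim, with mean log2 over the 24 arrays of 5.23 (Mmp12), 5.29 (Mmp20) and 5.45 (Mmp7), against a filter at 5.05. Mmp3 was brighter than each of them. How much of their signal was background was not tested, nor whether the change of Mmp3 differed from theirs. Capitals mark the AP-1 and TATA matches.
Mmp3, chr8:12925181-12925280, plus strand: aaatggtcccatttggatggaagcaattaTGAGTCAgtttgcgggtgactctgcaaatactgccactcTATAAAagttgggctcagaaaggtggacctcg
Mmp12, chr8:12866552-12866651, plus strand: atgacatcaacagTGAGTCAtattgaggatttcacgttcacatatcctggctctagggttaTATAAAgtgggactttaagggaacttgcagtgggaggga
Mmp20, chr8:13074179-13074278, plus strand: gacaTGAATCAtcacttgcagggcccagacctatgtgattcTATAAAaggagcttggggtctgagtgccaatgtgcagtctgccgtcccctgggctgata
Mmp7, chr8:13132943-13133042, plus strand: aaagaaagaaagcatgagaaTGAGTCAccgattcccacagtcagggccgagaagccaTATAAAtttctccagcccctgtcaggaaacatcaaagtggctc
In Mmp3 the AP-1 match begins 71 bases and the TATA match 32 bases before the start. The AP-1 match lies 87 bases before the start in Mmp12, 96 in Mmp20 and 80 in Mmp7. A match of letters is a description of the sequence and not a site shown to be bound.

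The promoter of Timp1 held no exact match to TGANTCA or TATAAA, and held the GC box GGGCGG, searched on both strands, which was in 24 of the 46 promoters and in 33.1% of all. It also holds tgagtaa, which is close to the AP-1 motif but was not counted by the exact search. It is shown for 150 bases before the start, with the GC box, read on the opposite strand, in capitals.
Timp1, chrX:3771123-3771272, minus strand: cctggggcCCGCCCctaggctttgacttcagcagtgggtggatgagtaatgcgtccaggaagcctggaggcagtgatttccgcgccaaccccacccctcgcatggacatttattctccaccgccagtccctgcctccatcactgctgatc
The table gave no promoter for Lox, Mmp16, Col12a1, Col1a1 or Col3a1.

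The remaining metalloproteinases were not called at 3 days. The gelatinases Mmp2 and Mmp9, which cut denatured collagen and basement membrane, differed by 0.22 (SE 0.11, adjusted p = 0.384) and -0.09 (SE 0.07). Mmp2 read 6.55, 6.70, 6.46 and 6.58 in the controls and 7.16, 6.83, 6.43 and 6.76 at 3 days, so 3 of the 4 transected arrays were above all controls and replicate 3 was below them. Mmp19 read 5.40, 5.61, 5.47 and 5.27 against 6.23, 5.59, 5.47 and 6.14 (0.42, SE 0.14, adjusted p = 0.142), with replicates 1 and 4 high and the other pair within the controls, and it was called without replicate 3 (adjusted p = 0.0276). With all 12 controls pooled, Mmp2, Mmp19 and Col12a1 were called too. The membrane-bound Mmp14, an activator of proMmp2, read 7.67, 7.54, 6.55 and 6.80 against 7.13, 7.12, 6.68 and 7.33 (-0.07, SE 0.21), and Mmp15, also membrane-bound, differed by -0.20 (SE 0.13).

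Mmp16, a further membrane-bound metalloproteinase, was higher at 3 days than at 1 week. It read 7.92, 8.01, 7.39 and 7.68 in the 4-day controls, 7.96, 8.22, 7.95 and 7.95 at 3 days and 7.64, 7.39, 7.51 and 7.18 at 1 week. Neither time differed from the controls after adjustment (0.27, adjusted p = 0.453, and -0.32, adjusted p = 0.999), and both overlapped them. All 3-day arrays were above all 1-week arrays, by 0.59 (SE 0.15, adjusted p = 0.0346). This call was lost (adjusted p up to 0.131) when any of 6 of the 8 arrays was left out, that is all but 3-day replicate 3 and 1-week replicate 1. At 2 weeks Mmp16 read 7.95 and 7.82 against 7.31, 7.33, 7.57 and 7.70, without overlap and without a call (0.41, SE 0.18, adjusted p = 0.890).

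The 25 collagens stayed close to their controls at 3 days: 7 differences were above 0 (47.6% of all probes were) and 18 below, with a median of -0.02. For 24 of the 25 the whole 95% interval lay within 0.50 log2 units of 0. Among the 10 fibrillar collagens, which form the fibers of scar and connective tissue, no upper bound exceeded 0.30 (Col5a2), or 1.23-fold. The bounds at this and later times are for probe intensity. Mean log2 over the 24 arrays ran from 5.52 (Col14a1) to 7.15 (Col1a1) among the 25 collagens, against array medians of 6.20 to 6.35. How much of each signal was background was not tested, so the bounds may not hold for collagen RNA. Col1a1, a chain of type I collagen, read 7.30, 7.29, 7.36 and 6.87 in the controls and 7.10, 7.18, 7.15 and 7.34 at 3 days. The transected arrays lay inside the range of the controls, and the difference was -0.01 (SE 0.09). Its partner chain Col1a2 differed by 0.09 (SE 0.08) and Col3a1, the type III chain, by -0.03 (SE 0.07).

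Of the 5 collagens of basement membranes and networks all 5 differences were below 0, from -0.13 to -0.01, and none was called. Col4a1, a main chain of vascular basement membrane, differed by -0.04 (SE 0.06). The lowest of all collagens was Col9a2, a fibril-associated chain, at -0.23 (SE 0.08, adjusted p = 0.176). The highest was Col12a1, which attaches to the surface of type I fibrils: it read 5.86, 6.11, 5.81 and 5.77 in the controls and 6.54, 6.19, 6.08 and 6.23 at 3 days. Only control 2 reached into the range of the transected arrays, and the difference of 0.37 (SE 0.11, upper bound 1.51-fold) missed the threshold (adjusted p = 0.0627). It passed without 3-day replicate 3 (adjusted p = 0.0295) or 4-day control 2 (adjusted p = 0.0315). Col12a1 was 5.72, 5.80, 5.80 and 5.75 at 1 week, below every 3-day array, and the direct difference of 0.49 (SE 0.11) was called (adjusted p = 0.0140), though not without 3-day replicate 1 (adjusted p = 0.0595). With Lox, Timp1 and Mmp16 it made 4 of the 61 genes that were higher at 3 days than at 1 week, or 6.56%, against 2.47% of all probes, and 5 of 61 had no overlap there, against 6.68%.

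No ADAMTS protease of the 11 was called at 3 days, with a median of -0.06. Adamts1, Adamts4 and Adamts5, which cleave aggrecan and related proteoglycans, differed by 0.03 (SE 0.08), -0.10 (SE 0.15) and -0.10 (SE 0.15). The lowest was Adamts3, a procollagen N-proteinase, which read 6.58, 6.08, 6.55 and 6.16 in the controls and 5.89, 5.95, 6.15 and 5.84 at 3 days (-0.38, SE 0.14, adjusted p = 0.169). Replicate 3 kept those groups from separating, and a further probe for Adamts3 gave -0.14 (SE 0.30).

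From 1 week on no collagen was called, and at 1 week the intervals of all 25 collagens lay within 0.50 log2 units of 0. No probe was called at 2 weeks or 1 month either (0% each). Without adjustment 4 genes had a p under 0.05 at 2 weeks, against 5.29% of all probes: Adamts1 (0.26, SE 0.09), Adamts15 (-0.22, SE 0.08), Timp1 and Mmp16. At 1 month there were 2, Timp1 and Loxl1, against 3.44% of all probes. Col8a1, a network-forming chain of vessels, was lowest among the collagens at 1 month, at 5.39 and 5.21 against 5.44 to 5.52 in the controls (-0.19, SE 0.09, adjusted p = 1). With 2 transected arrays, groups separate often: 10 of the 61 genes did not overlap at 2 weeks, against 17.7% of all probes, and 10 at 1 month, against 13.5%.

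**Figure D3:**
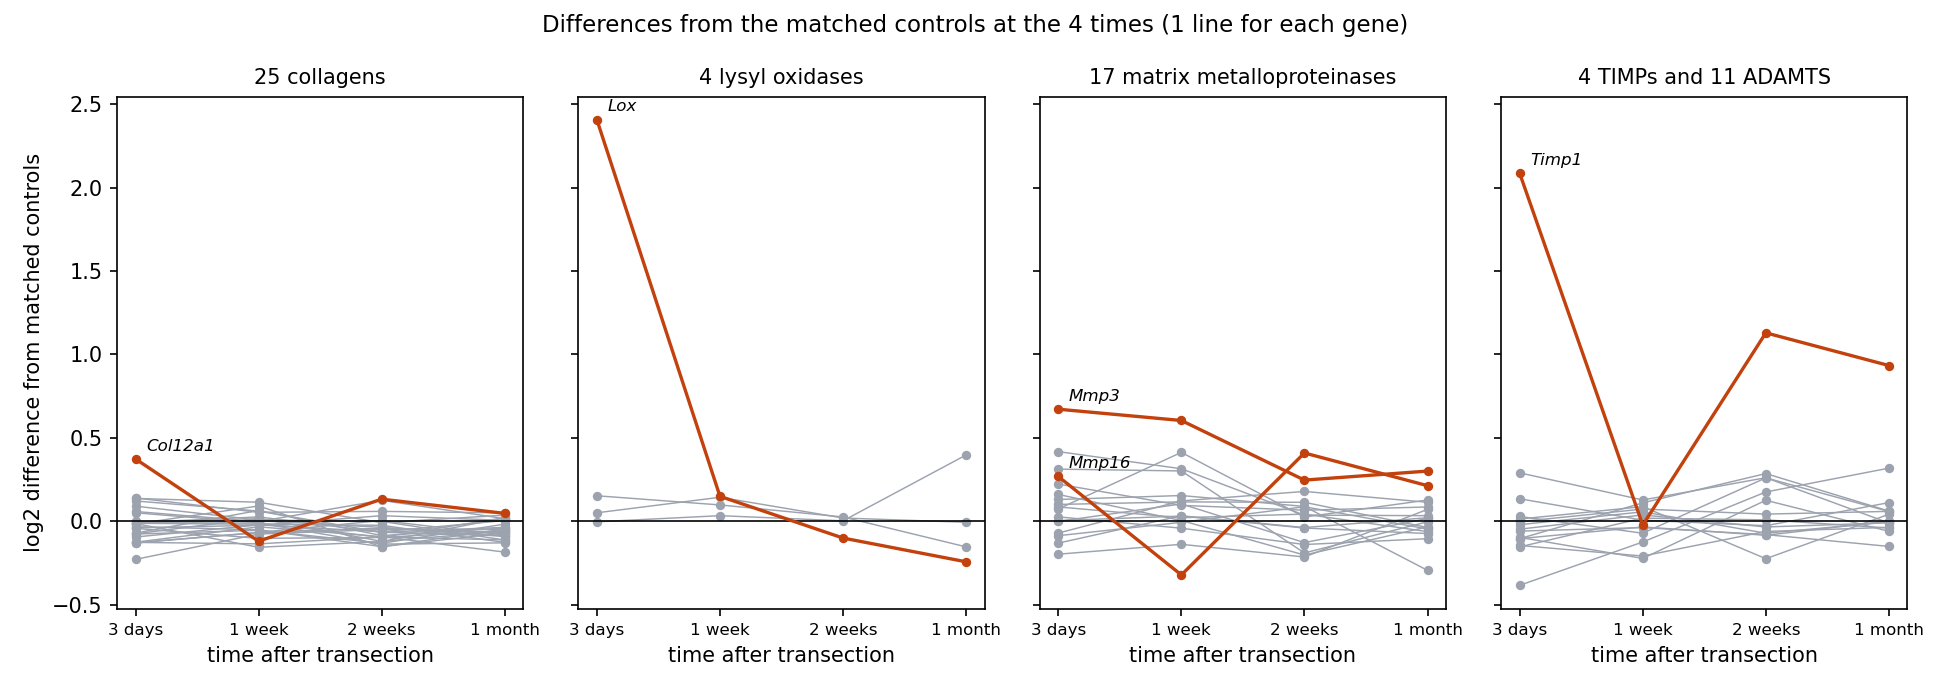
Log2 difference from the matched controls (y axis, the 4-day controls for both 3 days and 1 week) at the 4 times after transection (x axis), with 1 line for each of the 61 genes in 4 panels by class. Lines of Lox, Timp1, Mmp3, Mmp16 and Col12a1 are orange; Lox drops from 2.41 to 0.15 between the first times, and the collagen lines stay between -0.23 and 0.37.

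Among the controls, the 1-month and 2-week groups differed for 3 of the 61 genes (4.92%, against 10.2% of all probes). Timp3 was higher in the 1-month controls, at 8.82, 8.56, 8.88 and 8.73 against 8.21, 8.66, 8.28 and 8.07 (0.44, adjusted p = 0.0426). Col2a1 was lower, at 6.28 to 6.45 against 6.61 to 6.79 (-0.34, adjusted p = 0.0128), and so was Col27a1, at 6.29 to 6.53 against 6.66 to 6.90 (-0.32, adjusted p = 0.0200). Leaving out 2-week control 3 ended all 3 calls, leaving out 1-month control 4 ended those of Col27a1 and Timp3, and that of Timp3 was also lost without 2-week control 1 or 4 or 1-month control 1 or 3 (adjusted p up to 0.106). Timp3 was not called after quantile (0.28, adjusted p = 0.205) or cyclic loess normalization (0.28, adjusted p = 0.208) either. All 25 collagens were below 0 in this comparison, with a median of -0.19, where 42.7% of all probes were above 0 and their median was -0.05. After quantile or cyclic loess normalization of the same values, 22 of 25 were below 0 and the median was -0.08.

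The collagens as a class read low on the arrays with the lowest medians and highest on the array with the highest median, but did not follow the median on every array. Their mean, each gene taken against its own mean over the 24 arrays, was 0.18 on 4-day control 3, whose array median was the highest (6.35), and -0.16 on 4-day control 4 (6.22). On that last array all 25 collagens were below their own means. The 1-month controls, the arrays 1 month after transection and 4-day control 4 had the lowest medians (6.20 to 6.24) and the lowest collagen means (-0.17 to -0.07). The next lowest mean was -0.05, on 1-week replicate 1 (6.27). Arrays of like median also differed, at 0.11 on 2-week control 1 (6.30) and 0.00 on 3-day replicate 1 (6.31). The means were 0.04 to 0.15 in the 2-week controls and -0.13 to -0.07 in the 1-month controls, against -0.02 to 0.07 at 3 days. The share of the array median in the collagen differences between control groups was not tested.

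**Figure D4:**
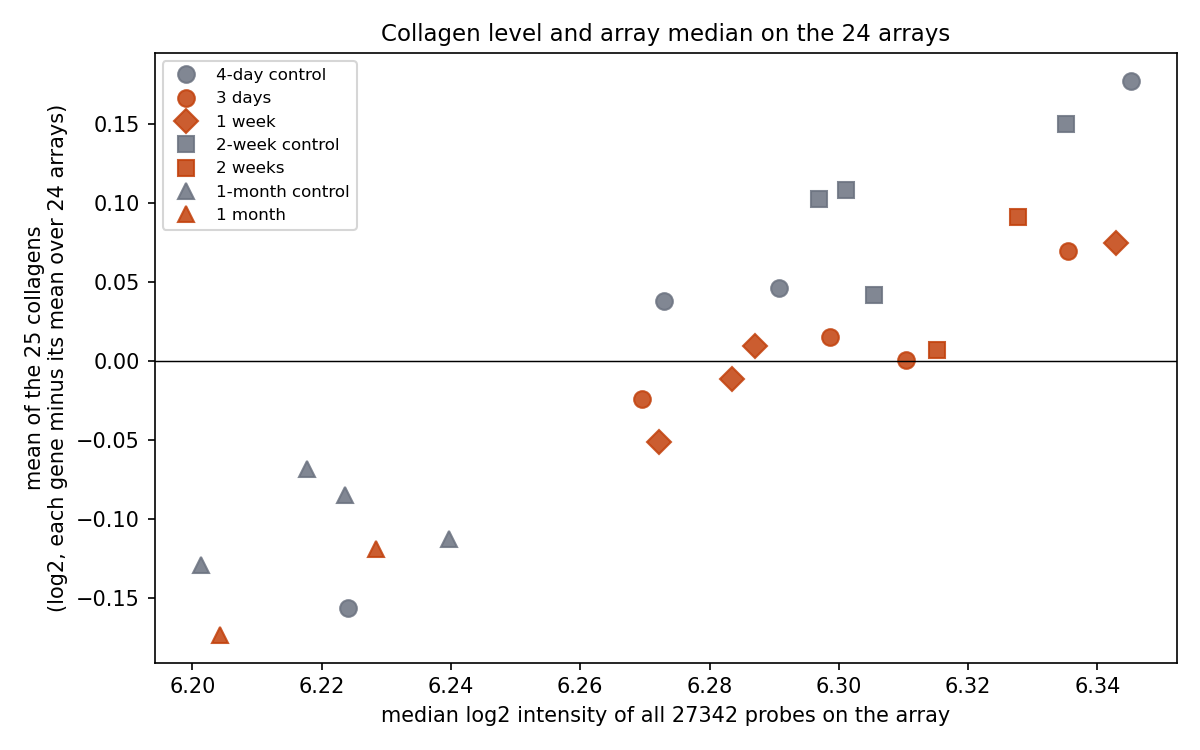
Mean of the 25 collagens on each of the 24 arrays (y axis, log2, each gene minus its own mean over the 24 arrays) against the median log2 intensity of all 27342 probes on that array (x axis), with 1 point for each array marked by group. Arrays of the 1-month controls and 1 month after transection lie low on both axes, and the 4-day controls span from -0.16 to 0.18.

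Genes that work with the collagens were counted in lists, to be read against the 2.89% of all probes called at 3 days (2% higher) and the 47.6% above 0. Of 13 tested genes of collagen maturation none was called at 3 days, 11 were above 0 and the median was 0.16, with P4hb (a subunit of prolyl hydroxylase) at 0.37 (adjusted p = 0.144), the lysyl hydroxylase Plod3 at 0.31 (adjusted p = 0.125) and the collagen chaperone Serpinh1 at 0.01. Of 9 collagen receptors 2 rose: Itgb1, the shared beta chain of collagen-binding integrins, by 0.81 (SE 0.17, adjusted p = 0.0112), and Ddr1, a receptor tyrosine kinase that binds collagen, by 0.38 (SE 0.10, adjusted p = 0.0314). Of 8 genes of the plasminogen system and other protease control 1 rose, the broad protease inhibitor A2m, by 0.65 (SE 0.14, adjusted p = 0.0113), while Plau was at 0.24, Plat at -0.04 and the metalloproteinase inhibitor Reck at 0.11. At the 3 later times no gene of these lists was called.

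Markers of other cells moved at 3 days too, and their part in the values of Lox, Timp1 and Mmp3 was not tested. Of 8 tested markers of microglia and macrophages 6 rose, with a median of 1.03, and their summed intensity was 3441 to 4973 on the 3-day arrays against 1182 to 3252 in the 4-day controls. Within their groups 4-day control 3 and 3-day replicate 3 had the lowest of these sums, as they had the lowest values of Lox and Timp1. The same arrays were lowest for 7 of the 8 lists of cells other than neurons, neutrophils being the exception. Mmp3 was also lowest of its group on 3-day replicate 3 (5.93), but 4-day control 3 was its highest control (6.07). At the later times none of the 8 microglia and macrophage markers was called. Their sums lay above the controls without overlap at 2 weeks (2319 to 2876 against 1490 to 1882) and at 1 month (2118 to 2159 against 1471 to 1791), and overlapped them at 1 week (2880 to 3874). Timp1 also lay above its controls at 2 weeks and 1 month, while Lox and Mmp3 overlapped theirs at both. In the pericyte and smooth muscle list 1 of 7 rose (Tagln, by 2.33), while Pdgfrb (0.24) and Myh11 (0.10) were not called, and the list median was 0.10. The sums of this list were 2619 to 4208 against 1635 to 2367, and the share of Tagln in them was not tested. None of 8 markers of fibroblasts and meninges was called, the highest being Dcn at 1.15 (adjusted p = 0.0647), with sums of 1134 to 1919 against 789 to 1430. None was called of 6 endothelial (1529 to 1982 against 1570 to 1963) and 4 neutrophil markers (574 to 777 against 185 to 971). Nor was any of 5 astrocyte (5600 to 7544 against 3693 to 7764), 5 oligodendrocyte (6204 to 7917 against 6105 to 8137) or 2 Schwann cell markers (494 to 852 against 368 to 568). All 8 neuronal markers were above the filter, 1 fell (Rbfox3, by 0.40) and their sums of 20630 to 22406 overlapped the control range of 20856 to 23012.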

How the data were processed

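The 24 arrays (Affymetrix Rat Gene ST, 7 groups) each held RNA from the laser-dissected TPS neurons of 1 animal. The authors made the deposited values, intensities on a linear scale from 17 to 7980, by RMA in GeneSpring GX, and RMA quantile-normalizes and summarizes probes. The number of arrays limits precision. Here log2 was taken, probes with a mean log2 at or under 5.05 (the lowest 15%) were dropped, and limma 3.58.1 (R 4.3.3) fitted 7 group means to all 24 arrays, with Benjamini-Hochberg adjustment over 23240 probes. P-values measure the spread between animals. Where a gene had several probes, the brightest was used. A probe naming several genes (323) or none (11922) was not used as a member. Named genes were every gene called in any comparison, the highest and lowest of each class at 3 days, the 5 brightest in the 4-day controls, the 3 smallest p where none was called, and a fixed list of main collagens, lysyl oxidases, TIMPs and proteases. Members and lists were chosen with earlier results of these data known. The fit was tested on simulated data. Python 3.11.15 with pandas 2.3.3, numpy 2.4.6 and matplotlib 3.10.9 made the tables and plots. Alternatives changed the filter, normalization, array weights, samples and replicate block.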

Additional observations from a re-analysis of the deposited data

Results flagged for a closer look

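In 165 gene and group sets of 4 arrays, 11 had an array far from the other 3, where chance flags about 1 in 20 if values are normal and untied. Some values were tied, as for Mmp19 below, and genes were named partly by their values. That rate is therefore only a rough guide. For Mmp3 these were 4-day control 3 at 6.07 (others 5.65 to 5.71) and 3-day replicate 3 at 5.93 (others 6.57 to 6.65), the arrays that made those groups overlap. For Lox they were 1-week replicate 1 at 6.88, 2-week control 1 at 5.65 and 1-month control 4 at 5.30. Col1a1 was low on 4-day control 4, at 6.87 (others 7.29 to 7.36), and Mmp16 was high on 3-day replicate 2, at 8.22. The rest were Col9a2 on 1-month control 2 at 6.75, Loxl3 on 1-week replicate 4 at 6.23, Mmp15 on 1-week replicate 1 at 7.29 and Mmp19 on 2-week control 3 at 5.40 (the others all at 5.48).

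Between times, the log2 difference of 3 days from 1 week was 2.26 for Lox, 2.11 for Timp1, 0.59 for Mmp16 and 0.49 for Col12a1. The effect of transection on Lox was larger at 3 days than at 2 weeks by 2.51 and than at 1 month by 2.65.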

How the results depend on the processing

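No called value changed sign under any of 312 alternative values, and 225 stayed past the threshold. At 3 days 3 genes were called, 1 with the filter at the median of all probes (Timp1, as Lox and Mmp3 fall under it), 0 with the compared groups alone, 6 with all 12 controls pooled (Lox, Timp1, Mmp3, Col12a1, Mmp19 and Mmp2) and 2 to 5 on leaving out 1 array. At 1 week the count was 0, and 1 (Mmp3) with pooled controls. At 2 weeks and 1 month it was 0 throughout. Between 3 days and 1 week 4 genes were called, 2 with the median filter, 1 with the compared groups alone and 2 to 4 on leaving out 1 array. On the average over the 4 times the count was 2, but 1 with no filter or with the median filter, 0 without 4-day controls 3 and 4, 0 by ordinary least squares and 0 to 3 on leaving out 1 array. The calls of Lox between the effects at 3 days and at 2 weeks or 1 month (1 each) fell to 0 with the median filter, the compared groups alone or without 4-day controls 3 and 4, for 2 weeks also with no filter or with quantile normalization, and ranged from 0 to 1 on leaving out 1 array. Between the 1-month and 2-week controls 3 genes were called, 17 with array quality weights, 8 with the compared groups alone, 15 without 4-day controls 3 and 4 and 0 to 3 on leaving out 1 array. The collagen median there was -0.19, and -0.24 with the median filter, -0.0791 with quantile and -0.0809 with cyclic loess normalization. Timp3 lost its call under both normalizations. Where no reason is given, the cause was not tested. The alternatives for the control groups and the differences of effects were chosen after seeing the data.

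Replicate numbers did not pair the arrays: the mean correlation of deviations was 0.02 for equal numbers and -0.01 for others. With the replicate number as a block 3 genes were called at 3 days and 0 on the average over the 4 times, the Lox difference between 3 days and 2 weeks lost its call (2.28, adjusted p = 0.126) and so did Mmp16 between 3 days and 1 week (0.55, adjusted p = 0.105), Mmp3 and Timp1 on the average (adjusted p = 0.0771 and 0.0561) and Timp3 between controls (adjusted p = 0.0562). No other call was lost.

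Groups of 2 arrays limit the late times, and for 8661 probes (31.7%) at least 2 arrays share 1 value above the lowest, which was not tested further.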
